A study of Mus musculus with 12 samples.

Results

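The genes described here are 51 mouse genes that encode the DNA replication machinery and the regulators of entry into S phase (the G1/S transition). They were listed by gene name, with earlier results of these data known, and all 51 were found among the 29937 genes of the deposited table. All 51 also passed the filter on low values, which asked for 1 FPKM or more in 3 or more of the 12 libraries and left 12036 genes. FPKM is the number of fragments mapped to a transcript, scaled to its length and to the library's total. The lowest count of any of the 51 in any library was 246.

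In G1, the origin recognition complex, Cdc6 and Cdt1 load the Mcm helicase onto replication origins, a step called licensing, and geminin prevents its repetition. At the G1/S transition, kinases with cyclin E as their partner act, and Cdc45 and the GINS complex join the helicase and switch it on. Primase and the DNA polymerases then copy the strands with the help of a sliding clamp, its loader, the single-strand binding protein RPA, and enzymes that supply nucleotides and join fragments. Many of these genes are transcribed by E2F factors, which the retinoblastoma protein restrains, and in carcinoma cells their transcripts are commonly read as a sign of cells in or near S phase.

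The study sequenced poly(A) RNA of 4T1, a line derived from a mammary carcinoma of the mouse, in 12 libraries that form 4 groups of 3. The groups were treated with OAP2, Oxa or APAP, as their labels name the agents, or were the controls titled PBS, for which the treatment is given as DMSO. All groups share the wild-type genotype and the adherent line, although the design text of the series speaks of a xenograft derived from cells; the sources used here give no doses or times and say nothing of an agent beyond its label. The PBS values were taken from columns headed CON, an inference from the lack of another untreated group.

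Total counts lay between 64071751 and 71500487 per library. Markers of 4T1 epithelial cells were high in every library, with a summed FPKM of 852 to 1290 over 6 genes. PBS 2 stood apart: 5 red blood cell markers summed to FPKM 230 and 6 neutrophil markers to 64.8 there, against at most 0.37 and 0.72 in the other 11 libraries. The 5 macrophage markers summed to 45.9 in PBS 1 and to 12.1 to 20.3 elsewhere. Quality weights, which limma lowers for libraries that vary more than the rest, were lowest in PBS 2 (0.131) and OAP2 3 (0.239). Nothing in the labels says whether the replicates were separate cultures, and the p-values may reflect technical spread alone.

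Promoter sequence was available from RefSeq (GRCm38.p6) for 42 of the 51 genes, as windows from 250 bases before to 50 bases after a transcription start. An E2F-like 8-letter match (TTTCGCGC, TTTGGCGC, TTTCCCGC or TTTGCCGC, on either strand) occurred in 16 of the 42 genes (38.1%) and in 433 of the 8356 tested genes with a window (5.18%). It occurred in 11 of the 22 genes with a window that were called lower in OAP2 than in Oxa (50.0%), and in 5 of the 20 others (25.0%), a difference that was not tested. CCAAT, the letters of the NF-Y box, occurred in 25 of 42 genes (59.5%) and in 43.5% of tested genes, and TTTGAA, a core of the CHR element of mitotic genes, in 5 of 42 (11.9%) and in 14.0%. A match is a stretch of letters and not a measured binding site. The 250 bases before the start are printed 5′ to 3′ on the gene's strand for 5 genes that were lower in OAP2 than in Oxa and carry a match before the start, and for Orc5, which was higher in OAP2 and has none. Mcm7 and Uhrf1 have 2 windows each, and the 1 printed was taken for its matches, while the other holds 0. Capitals mark the E2F-like match in either orientation, which in Mcm5 is a pair of overlapping matches. The windows are chrX:93632156-93632405 on the minus strand for Pola1, chr11:98907901-98908150 on the plus strand for Cdc6, chr8:75109259-75109508 on the plus strand for Mcm5, chr5:138171884-138172133 on the minus strand for Mcm7, chr17:56304063-56304312 on the plus strand for Uhrf1 and chr5:22550339-22550588 on the minus strand for Orc5.
Pola1: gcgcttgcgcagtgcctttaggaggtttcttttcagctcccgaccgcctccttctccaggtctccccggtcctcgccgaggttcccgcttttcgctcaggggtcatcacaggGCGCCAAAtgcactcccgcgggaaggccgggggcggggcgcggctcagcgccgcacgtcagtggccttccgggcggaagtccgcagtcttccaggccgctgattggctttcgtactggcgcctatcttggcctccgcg
Cdc6: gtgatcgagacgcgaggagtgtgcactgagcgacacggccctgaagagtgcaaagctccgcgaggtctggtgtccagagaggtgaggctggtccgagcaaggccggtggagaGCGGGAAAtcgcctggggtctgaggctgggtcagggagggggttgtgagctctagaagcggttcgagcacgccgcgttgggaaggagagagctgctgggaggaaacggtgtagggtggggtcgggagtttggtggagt
Mcm5: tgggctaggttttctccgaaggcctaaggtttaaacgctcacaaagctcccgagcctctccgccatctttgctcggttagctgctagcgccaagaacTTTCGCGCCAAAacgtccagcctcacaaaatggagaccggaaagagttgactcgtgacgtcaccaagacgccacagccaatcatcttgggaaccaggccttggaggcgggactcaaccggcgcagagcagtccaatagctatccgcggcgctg
Mcm7: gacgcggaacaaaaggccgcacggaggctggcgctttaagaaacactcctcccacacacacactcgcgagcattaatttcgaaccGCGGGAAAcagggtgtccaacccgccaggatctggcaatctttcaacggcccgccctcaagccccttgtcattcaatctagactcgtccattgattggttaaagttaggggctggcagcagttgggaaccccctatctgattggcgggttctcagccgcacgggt
Uhrf1: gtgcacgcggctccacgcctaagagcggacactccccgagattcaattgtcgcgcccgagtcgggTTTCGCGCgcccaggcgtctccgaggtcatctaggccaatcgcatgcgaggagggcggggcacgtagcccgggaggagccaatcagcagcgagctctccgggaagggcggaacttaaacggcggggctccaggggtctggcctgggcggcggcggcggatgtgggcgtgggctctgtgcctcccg
Orc5: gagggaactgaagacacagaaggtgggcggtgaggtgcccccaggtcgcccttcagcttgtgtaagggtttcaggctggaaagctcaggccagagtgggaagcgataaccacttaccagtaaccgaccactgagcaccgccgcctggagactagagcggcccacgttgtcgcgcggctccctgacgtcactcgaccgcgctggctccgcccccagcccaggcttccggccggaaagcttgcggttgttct

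Across the 12 libraries the 51 genes moved largely together. Relative to each gene's mean log2 CPM (counts scaled to library size) over all libraries, the median of the 51 was -0.19, -0.17 and -0.15 in OAP2 1, 2 and 3, and 0.27, 0.34 and 0.31 in Oxa 1, 2 and 3. It was -0.13, -0.17 and -0.13 in APAP 1, 2 and 3, and -0.13, 0.28 and -0.10 in PBS 1, 2 and 3. The Oxa libraries and PBS 2 were thus high and the other 8 low, while the median over all 12036 genes lay between -0.01 and 0.01 in every library. The median of 28 G2 and mitosis genes stayed between -0.06 and 0.10, without a gap between the Oxa libraries and the rest. All 3 Oxa libraries exceeded all 6 OAP2 and APAP libraries in 35 of the 51 genes (68.6%), and in 14.9% of all genes tested. These are bulk libraries, in which fewer cells in S phase and less RNA per cell cannot be told apart.

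**Figure D1:**
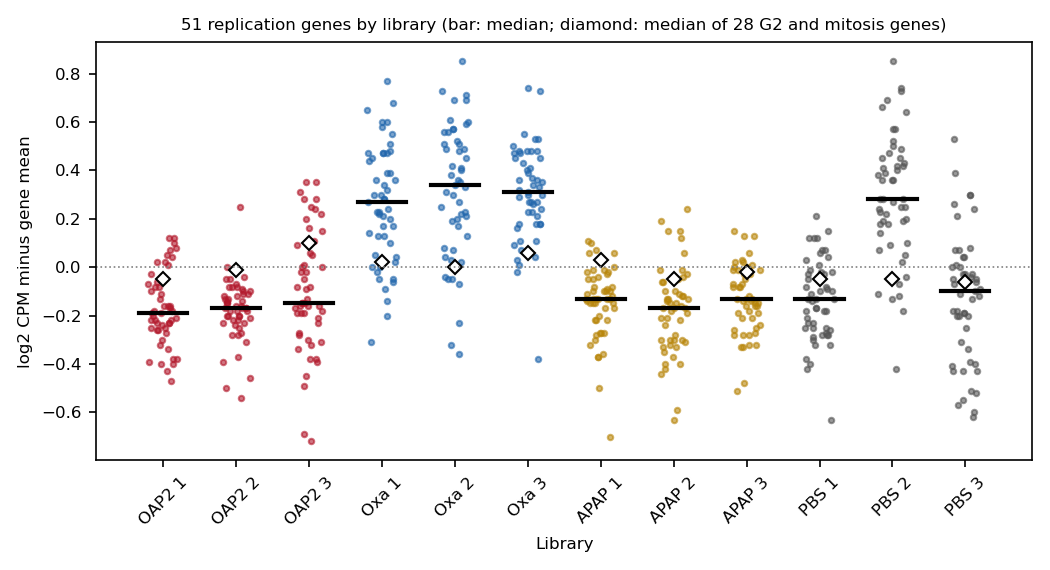
Deviation of each of the 51 genes from its own mean over the 12 libraries (vertical axis, log2 CPM) by library (horizontal axis). Each point is a gene, each bar the median of the 51 (-0.19 to -0.15 in OAP2, 0.27 to 0.34 in Oxa, -0.17 to -0.13 in APAP, and -0.13, 0.28 and -0.10 in PBS), and each diamond the median of 28 G2 and mitosis genes.

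PBS 2 was the highest of the 3 PBS libraries for 39 of the 51 genes (76.5%) and for 41.0% of all genes tested. It exceeded all 3 Oxa libraries for 19 of the 51 (37.3%), close to the 37.7% over all genes. Nucleotide supply and the clamp give examples. Rrm2, the small subunit of ribonucleotide reductase, was at FPKM 65.6 in PBS 2, against 31.5 and 32.6 in PBS 1 and PBS 3. Pcna, the sliding clamp, was at 80.0 in PBS 2, against 45.8 and 51.6 in PBS 1 and PBS 3. This is the library with the red blood cell and neutrophil transcripts, and their part in these levels was not tested. The counts against PBS, and the values that move, are therefore given with and without PBS 2.

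**Figure D2:**
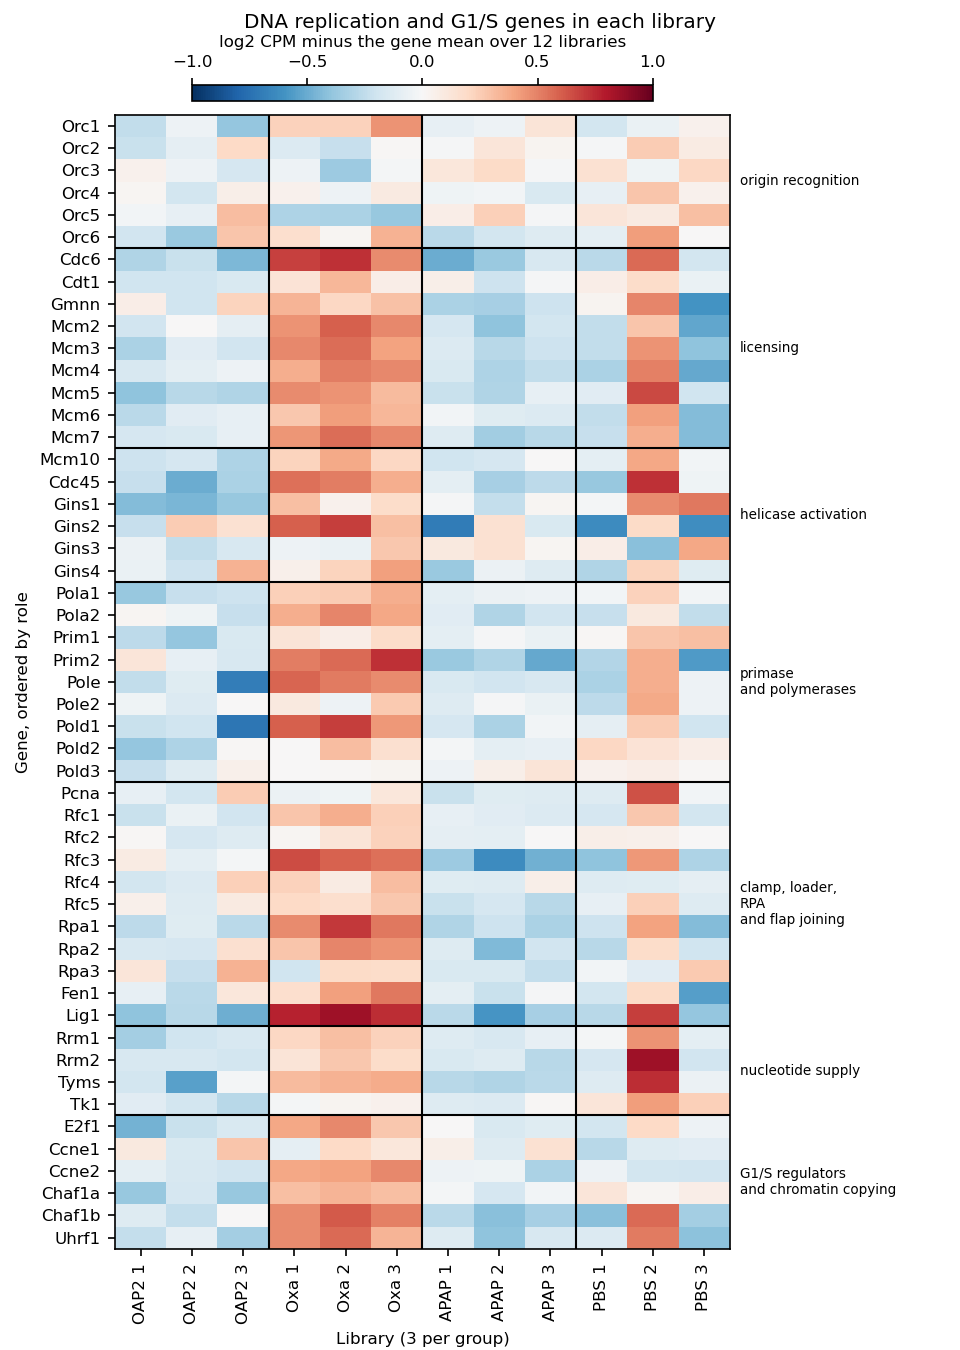
Log2 CPM of the 51 genes (rows, ordered by role) in the 12 libraries (columns), as the difference from each gene's mean over the libraries, from blue (lower) to red (higher). The Oxa columns and PBS 2 are red in most rows of the licensing, polymerase and nucleotide supply groups, while the origin recognition rows show no such block and Orc5 is blue in all 3 Oxa libraries.

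OAP2 against Oxa, the direct comparison of those treatments, gave the most called genes with all 12 libraries. With PBS 2 left out, Oxa against PBS called more over all genes (3066, against 2743). Replication genes were lower in OAP2: 25 of the 51 fell, 1 (Orc5) rose and 25 did not pass the test. Over all genes tested, 6.91% were called lower and 6.02% higher in OAP2 at an adjusted p below 0.05 (edgeR's quasi-likelihood test, Benjamini-Hochberg adjusted over 12036 genes). The median log2 fold change was -0.48 over the 51 genes and 0.00 over all genes. In 37 of the 51 genes all 3 OAP2 libraries lay below all 3 Oxa libraries, which held for 20.5% of all genes. Without PBS 2, which enters the fit only through the shared spread, 33 were called lower and 1 higher, against 12.7% and 10.1% of all genes.

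Of the 6 origin recognition genes, which mark where replication starts, Orc1 fell, Orc5 rose and 4 did not pass. Orc1, the largest subunit, was at FPKM 2.26, 2.56 and 2.04 in OAP2 and 3.16, 3.06 and 3.76 in Oxa (log2 fold change -0.53 ± 0.15 SE, adjusted p = 0.0321). Orc5, another ATPase-family subunit, was at 7.55, 7.14 and 9.44 in OAP2 and 6.20, 5.98 and 6.02 in Oxa (0.41 ± 0.11, adjusted p = 0.0310). Both genes had groups that did not overlap, in opposite directions. For the others the 95% intervals of the log2 fold change ran from -0.16 to 0.34 for Orc2, from -0.16 to 0.32 for Orc3, from -0.28 to 0.17 for Orc4 and from -0.61 to 0.11 for Orc6. Orc5 overlaps the predicted gene Gm15421 on the same strand over 924 bases, a kind of overlap that counting by strand does not separate, so its counts are less certain. The Orc2 span overlaps Nif3l1 and Orc4 overlaps Acvr2a, both on the opposite strand, and the same holds for their counts.

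Of the 9 licensing genes 6 fell, 0 rose and 3 did not pass, and their median was -0.61. Cdc6, the ATPase that recruits the helicase to origins, was at FPKM 2.20, 2.28 and 1.97 in OAP2 and 4.32, 4.36 and 3.81 in Oxa. APAP libraries held 1.84, 2.01 and 2.39 of it, and PBS libraries 2.19, 4.01 and 2.45. Cdc6 in OAP2 was thus 1.93-fold lower than in Oxa (-0.95 ± 0.20, adjusted p = 0.00835), with OAP2 at the level of APAP, PBS 1 and PBS 3. Cdt1, its partner in loading, was at 37.0, 36.4 and 37.8 in OAP2 and 46.7, 51.5 and 45.6 in Oxa (-0.37 ± 0.10, adjusted p = 0.0309). Geminin (Gmnn), the inhibitor of Cdt1, did not pass (-0.25, 95% interval -0.71 to 0.22), and its OAP2 and Oxa libraries overlapped.

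The 6 subunits of the Mcm helicase ring, each present once in the complex, all had negative fold changes. Mcm5 was at FPKM 30.5, 32.7 and 32.4 in OAP2 and 55.7, 53.3 and 51.2 in Oxa (-0.74 ± 0.18, adjusted p = 0.0163). Mcm3 was at 32.8, 37.1 and 35.4 in OAP2 and 56.7, 58.4 and 55.0 in Oxa (-0.69 ± 0.17, adjusted p = 0.0193). Mcm7 was at 22.9, 22.9 and 24.2 in OAP2 and 35.0, 36.7 and 36.6 in Oxa (-0.62 ± 0.16, adjusted p = 0.0204). All 3 fell, with no overlap between the groups, as did Mcm2 (-0.61 ± 0.16, adjusted p = 0.0244). Mcm4 (-0.56, 95% interval -0.97 to -0.14, adjusted p = 0.0744) and Mcm6 (-0.49, -0.85 to -0.13, adjusted p = 0.0693) missed the threshold although their libraries did not overlap either. Without PBS 2 both passed, at adjusted p of 0.000338 for Mcm4 and 0.00100 for Mcm6, with unmoved fold changes.

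Of the 6 genes that activate the helicase, Cdc45 and Mcm10 fell and the 4 GINS subunits did not pass. Cdc45, which completes the moving helicase, was at FPKM 5.38, 4.38 and 5.01 in OAP2 and 9.25, 8.70 and 8.24 in Oxa (-0.82 ± 0.21, adjusted p = 0.0245). Mcm10, which helps the helicase start, was at 6.47, 6.50 and 5.96 in OAP2 and 8.66, 9.40 and 8.80 in Oxa (-0.50 ± 0.12, adjusted p = 0.0175). Neither gene's groups overlapped. Among the GINS subunits the fold changes were -0.60 for Gins1 (adjusted p = 0.0652), -0.47 for Gins2, -0.22 for Gins3 and -0.20 for Gins4, with intervals reaching from -1.03 at the lowest (Gins1) to 0.17 at the highest (Gins4). Gins2 overlaps Gse1 on the opposite strand, so its counts are less certain.

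Primase and polymerase genes fell in 7 of 9 cases, with a median of -0.49. Pold1, the catalytic subunit of polymerase delta, was at FPKM 5.82, 5.82 and 4.06 in OAP2 and 10.2, 10.6 and 9.29 in Oxa, while APAP held 5.80, 5.21 and 6.60 and PBS 6.20, 8.04 and 6.04. It was 1.91-fold lower in OAP2 than in Oxa (-0.94 ± 0.16, adjusted p = 0.00235), and OAP2 3 was the lowest of the 12 libraries. Pole, the catalytic subunit of polymerase epsilon, was at 6.39, 6.88 and 4.66 in OAP2 and 11.3, 10.6 and 10.7 in Oxa (-0.86 ± 0.16, adjusted p = 0.00472). OAP2 3 was again the lowest, and neither gene's groups overlapped.

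Pola1, the catalytic subunit of polymerase alpha whose promoter is printed above, was at FPKM 5.13, 5.59 and 5.70 in OAP2 and 7.86, 7.67 and 8.74 in Oxa (-0.56 ± 0.09, adjusted p = 0.00230). Its partner Pola2 was at 7.13, 6.72 and 5.95 in OAP2 and 9.01, 9.55 and 9.40 in Oxa (-0.49 ± 0.11, adjusted p = 0.0115, and adjusted p = 0.0643 without Oxa 2). The small primase subunit Prim1, which makes the RNA primer, was at 7.34, 6.56 and 7.83 in OAP2 and 9.60, 8.93 and 10.1 in Oxa (-0.39 ± 0.10, adjusted p = 0.0246). All 4 subunits of the polymerase alpha and primase complex fell, since the large primase subunit Prim2 did so too (-0.65 ± 0.19, adjusted p = 0.0395). The Prim1 call was lost without OAP2 1, OAP2 2 or any 1 of the Oxa libraries, with adjusted p up to 0.117. Pold2 fell (-0.38 ± 0.11, adjusted p = 0.0390), whereas the accessory subunits Pole2 (-0.17, 95% interval -0.51 to 0.18) and Pold3 (-0.11, -0.31 to 0.09) did not pass.

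**Figure D3:**
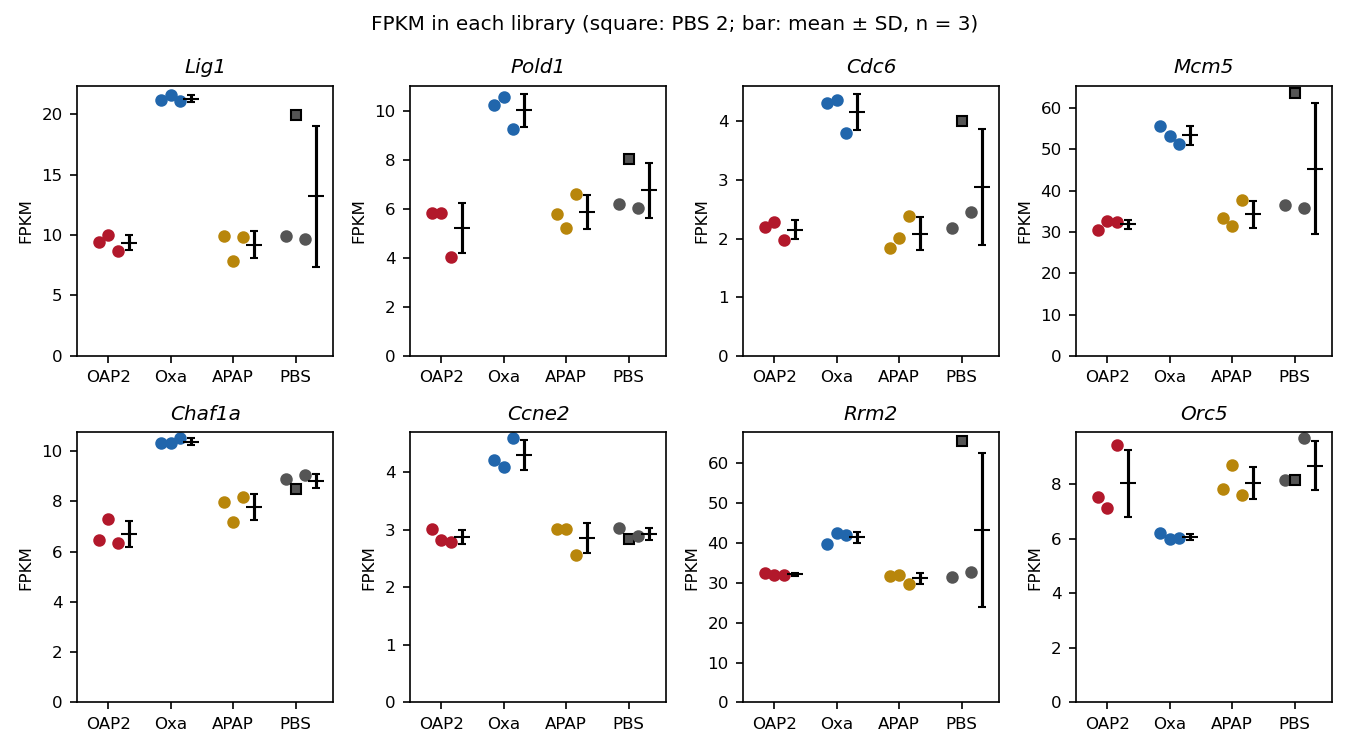
FPKM (vertical axes, from 0) of 8 genes in the 12 libraries, by treatment group; points are libraries, the square is PBS 2, and bars give mean ± SD (n = 3). In the first 6 panels all 3 OAP2 libraries lie below all 3 Oxa libraries by up to 2.26-fold on average (Lig1), Rrm2 shows the high PBS 2 value of 65.6, and Orc5 is lowest in Oxa.

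Of the 11 genes for the clamp, its loader, RPA and flap joining, 4 fell, 0 rose and 7 did not pass. Lig1, the ligase that seals Okazaki fragments, had the largest change of the 51 genes. It was at FPKM 9.39, 10.0 and 8.72 in OAP2 and 21.2, 21.6 and 21.1 in Oxa, a 2.26-fold difference (-1.18 ± 0.22, adjusted p = 0.00448). APAP libraries held 9.91, 7.89 and 9.81 of Lig1, and PBS libraries 9.96, 20.0 and 9.68. The 3 Oxa libraries and PBS 2 thus formed 1 level and the other 8 libraries another, with nothing in between. Rpa1, the large subunit that grips single-stranded DNA, was at 16.4, 17.7 and 16.1 in OAP2 and 27.1, 31.0 and 28.7 in Oxa (-0.79 ± 0.17, adjusted p = 0.00835), again without overlap.

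The clamp itself did not pass the test. Pcna was at FPKM 48.5, 44.6 and 60.3 in OAP2 and 49.2, 48.2 and 56.4 in Oxa (0.00, 95% interval -0.37 to 0.37), with groups that overlapped. The small RPA subunit gene Rpa3 had a fold change of 0.03 (-0.35 to 0.41), and Rpa2 of -0.46 (adjusted p = 0.0554). Of the clamp loader, the large subunit Rfc1 (-0.45 ± 0.11, adjusted p = 0.0203) and Rfc3 (-0.61 ± 0.18, adjusted p = 0.0423) fell. Rfc2 (-0.22), Rfc4 (-0.22) and Rfc5 (-0.21) did not pass, with intervals from -0.47 (Rfc4) to 0.03 (Rfc4), nor did the flap nuclease gene Fen1 (-0.45, adjusted p = 0.0887). The related pseudogene Pcna-ps2 reached FPKM 2.75 at most, and how reads shared with it were counted is not stated.

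Of 4 nucleotide supply genes only Rrm1, the large subunit of ribonucleotide reductase, fell. It was at FPKM 12.4, 13.5 and 14.0 in OAP2 and 18.2, 18.7 and 18.8 in Oxa (-0.48 ± 0.13, adjusted p = 0.0244). Thymidylate synthase (Tyms, -0.58, adjusted p = 0.0747), the small reductase subunit Rrm2 (-0.36, adjusted p = 0.286) and thymidine kinase (Tk1, -0.20, adjusted p = 0.176) did not pass. In all 4 the OAP2 libraries lay below the Oxa libraries. Without PBS 2, Rrm2 (adjusted p = 0.00274) and Tyms (adjusted p = 0.00339) passed.

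Among the 6 G1/S regulators and chromatin copying genes, 4 fell. E2f1, a transcription factor that drives S-phase genes, was at FPKM 4.57, 5.33 and 5.66 in OAP2 and 8.29, 8.55 and 7.78 in Oxa (-0.66 ± 0.13, adjusted p = 0.00603). Chaf1a, the large subunit of the factor that places histones on new DNA, was at 6.45, 7.31 and 6.36 in OAP2 and 10.3, 10.3 and 10.5 in Oxa (-0.63 ± 0.09, adjusted p = 0.000734). Uhrf1, which brings DNA methylation to the new strand, was at 17.7, 19.3 and 16.3 in OAP2 and 28.8, 29.9 and 26.8 in Oxa (-0.68 ± 0.18, adjusted p = 0.0296). None of these genes had overlapping groups, and Chaf1a had the smallest p-value of the 51. Its partner Chaf1b just missed the threshold (-0.65 ± 0.20, adjusted p = 0.0518), and passed without PBS 2 (adjusted p = 0.000179).

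The cyclin E genes parted. Ccne2 was at FPKM 3.02, 2.82 and 2.79 in OAP2 and 4.22, 4.10 and 4.59 in Oxa (-0.57 ± 0.13, adjusted p = 0.0113, and adjusted p = 0.0524 without Oxa 3). APAP libraries held 3.01, 3.01 and 2.56 of Ccne2 and PBS libraries 3.04, 2.84 and 2.89, so here PBS 2 lay with the other PBS libraries and only the Oxa libraries were high. Ccne1 was at 4.84, 3.99 and 5.42 in OAP2 and 4.24, 5.02 and 4.97 in Oxa (0.01, 95% interval -0.31 to 0.32), with overlapping groups. The difference between the cyclin genes was not tested. Ccne2 overlaps Ints8 and Chaf1a overlaps Ubxn6, each on the opposite strand, and no source used here says whether strand was used in counting. Shorter overlaps with a tested gene on the opposite strand were found for Orc6, Mcm7, Cdc45, Rfc4, Rfc5, Fen1 and Lig1.

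**Figure D4:**
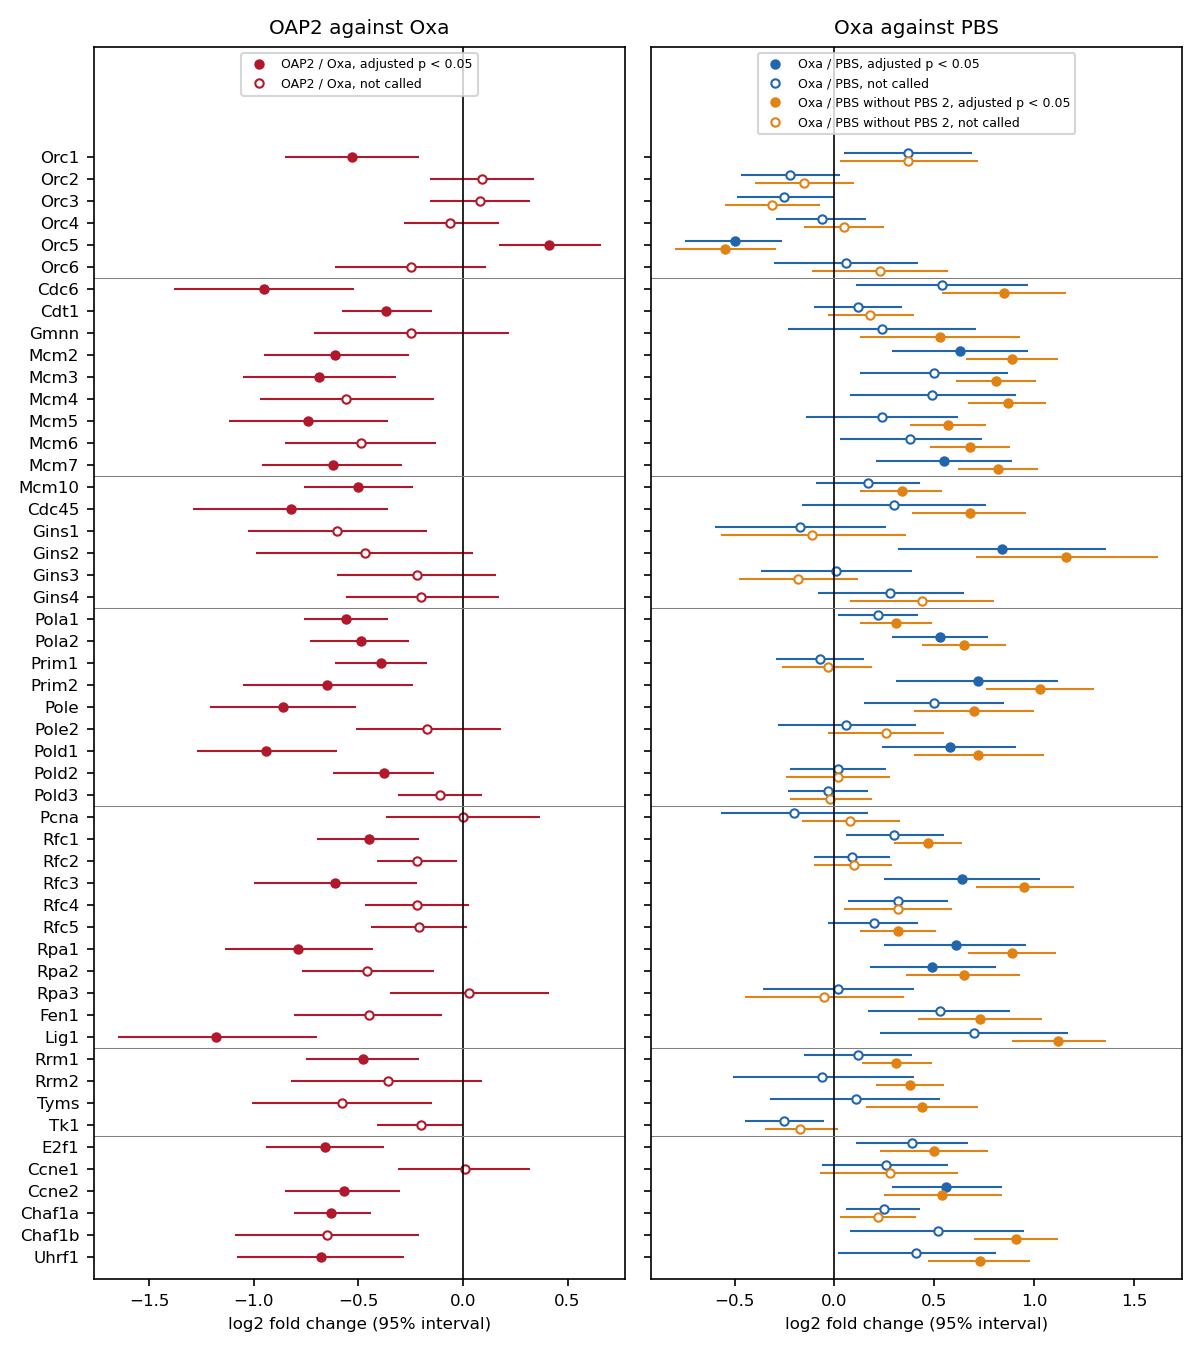
Log2 fold changes with 95% intervals (horizontal axes) of the 51 genes, in the order of their roles, for OAP2 against Oxa (left) and for Oxa against PBS with all libraries and without PBS 2 (right); filled symbols passed an adjusted p of 0.05. Most genes lie left of 0 on the left (median -0.48) and right of 0 on the right (median 0.26, and 0.44 without PBS 2). Orc2, Orc3 and Orc5 lie on the other side in both, and of these only Orc5 was called. The panels share the Oxa libraries, so they are not independent.

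How firmly these calls stand differed between genes. Lig1, Pold1, Pole, Pola1, Rpa1, E2f1 and Chaf1a were called in all 24 settings tried, and Cdc6 in all 23 that kept it. Mcm5 was called in 20, Mcm3 in 19, Mcm2 and Mcm7 in 18, and Orc1, Cdt1, Cdc45, Uhrf1 and Orc5 in 17. Prim2 and Rfc3 were called in 13 and Pold2 in 11, the fewest among the 26 genes called. The number called fell to 10, 9 and 11 without Oxa 1, Oxa 2 and Oxa 3, to 11 without OAP2 1 and to 17 without OAP2 2. It was 21 without OAP2 3, and lay between 23 and 34 when an APAP or PBS library was left out. Over all genes the count moved too: it was lowest without Oxa 2 (688) and highest without PBS 2 (2743).

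**Figure D5:**
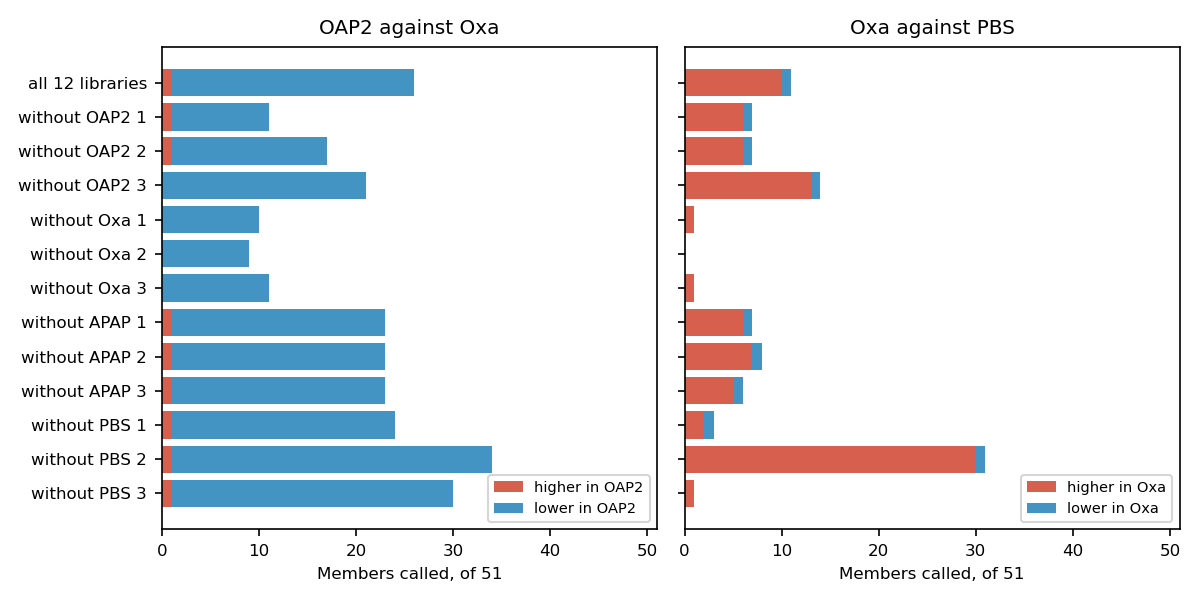
Number of the 51 genes called (horizontal axes) in OAP2 against Oxa (left) and Oxa against PBS (right) with all 12 libraries and with each library left out in turn, split by direction. The count ranges from 9 to 34 on the left and from 0 to 31 on the right, where leaving out PBS 2 gives 30 genes higher and 1 lower in Oxa.

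Oxa against PBS asks what Oxa changed relative to the controls. Replication genes were higher in Oxa: 10 of 51 rose, Orc5 fell and 40 did not pass, with a median log2 fold change of 0.26. Over all genes 5.35% were called higher and 4.76% lower in Oxa. Without PBS 2, 30 of the 51 rose and Orc5 fell, with a median of 0.44, against 14.2% and 11.2% of all genes. The counts rest on the libraries used: 0 of the 51 were called without Oxa 2. The number was 1 without Oxa 1, without Oxa 3 or without PBS 3, and 3 without PBS 1. It was 6 without APAP 3, and 7 without OAP2 1, OAP2 2 or APAP 1. Over all genes the count was also lowest without Oxa 2 (477) and highest without PBS 2 (3066).

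The 10 genes called higher with all libraries came from 5 of the 7 roles. Pola2 was at FPKM 9.01, 9.55 and 9.40 in Oxa and 5.85, 7.55 and 6.09 in PBS (0.53 ± 0.11, adjusted p = 0.0104, and adjusted p = 0.0532 without Oxa 2). Ccne2 was at 4.22, 4.10 and 4.59 in Oxa and 3.04, 2.84 and 2.89 in PBS (0.56 ± 0.13, adjusted p = 0.0156). Neither gene's groups overlapped, with PBS 2 included. Pold1 was at 10.2, 10.6 and 9.29 in Oxa and 6.20, 8.04 and 6.04 in PBS (0.58 ± 0.16, adjusted p = 0.0331). Rpa1 was at 27.1, 31.0 and 28.7 in Oxa and 16.5, 25.8 and 14.9 in PBS (0.61 ± 0.16, adjusted p = 0.0340). In both, PBS 2 was the highest PBS library but stayed under the lowest Oxa library. The calls of Ccne2, Pold1 and Rpa1 were each lost without any 1 of the Oxa libraries and without PBS 3, those of Pold1 and Rpa1 also without PBS 1, and that of Rpa1 also without APAP 1 or APAP 3, with adjusted p up to 0.136.

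The other 6 genes that rose were Gins2 (0.84), Prim2 (0.72), Rfc3 (0.64), Mcm2 (0.63), Mcm7 (0.55) and Rpa2 (0.49), with adjusted p between 0.0241 (Mcm2) and 0.0470 (Rpa2). Orc5 was at FPKM 6.20, 5.98 and 6.02 in Oxa and 8.16, 8.15 and 9.71 in PBS (-0.50 ± 0.11, adjusted p = 0.0150). Its Oxa libraries were the 3 lowest of all 12, while most of the 51 genes were high there. No other member of the origin recognition group was called, with or without PBS 2. Without PBS 2 these 10 genes were again called higher, by 0.54 (Ccne2) to 1.16 (Gins2), and Orc5 was called lower (-0.55).

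Leaving out PBS 2 moved single genes as well as the count. Lig1 had a log2 fold change of 0.70 (adjusted p = 0.0590) with all libraries and of 1.12 ± 0.11 (adjusted p = 5.31e-05) without PBS 2. Cdc6 had 0.54 (adjusted p = 0.0983) with all libraries and 0.85 (adjusted p = 0.00113) without PBS 2. The 6 Mcm ring genes then rose together, by 0.57 (Mcm5) to 0.89 (Mcm2). Rrm2, which had -0.06 with all libraries, had 0.38 (adjusted p = 0.00413) without PBS 2, so its direction turned. Pcna also turned, with -0.20 with all libraries and 0.08 without PBS 2, but was not called in either. Prim1 (-0.03), Pold2 (0.02), Pold3 (-0.02), Rpa3 (-0.05) and Tk1 (-0.17) were not called without PBS 2.

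OAP2 against PBS asks whether OAP2 shifted these genes from the controls. Few changed: 4 of 51 fell, 0 rose and 47 did not pass, against 3.11% called lower and 2.14% higher over all genes. The median log2 fold change was -0.16, and -0.03 without PBS 2. Prim1 was at FPKM 7.34, 6.56 and 7.83 in OAP2 and 8.61, 10.6 and 11.1 in PBS (-0.47 ± 0.10, adjusted p = 0.0194). Thymidine kinase (Tk1), which salvages thymidine, was at 13.4, 12.5 and 11.8 in OAP2 and 15.3, 19.3 and 17.5 in PBS (-0.45 ± 0.09, adjusted p = 0.0139). In both genes all 3 OAP2 libraries lay below all 3 PBS libraries.

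Chaf1a was at FPKM 6.45, 7.31 and 6.36 in OAP2 and 8.88, 8.50 and 9.05 in PBS (-0.38 ± 0.09, adjusted p = 0.0217). Gins1, a subunit of the helicase activator, was at 2.02, 1.96 and 2.09 in OAP2 and 2.64, 3.79 and 4.09 in PBS (-0.77 ± 0.20, adjusted p = 0.0405). Neither overlapped between the groups, and for Chaf1a PBS 2 was the lowest PBS library. Without PBS 2 these 4 genes remained lower, and Mcm4 (0.31 ± 0.09, adjusted p = 0.0322) and Gins2 (0.69 ± 0.21, adjusted p = 0.0370) were called higher, against 7.65% lower and 8.77% higher over all genes. With all libraries Mcm4 had a log2 fold change of -0.06 and Gins2 of 0.37, so the direction of Mcm4 turned. The call of Gins1 was lost without any 1 of 10 libraries, that of Prim1 without OAP2 1, OAP2 2 or PBS 3, and that of Chaf1a without OAP2 1, PBS 1 or PBS 3, while Tk1 held with each library left out (adjusted p up to 0.0486). The count was 1 without OAP2 1 or PBS 3, and 2 without OAP2 2. Over all genes it was also lowest without OAP2 1 (252). Tk1 overlaps the predicted gene Gm20708 on the opposite strand over its whole span, so its counts are less certain.

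The genes with the largest falls against Oxa were not called against PBS. Lig1 had a log2 fold change of -0.48 (95% interval -0.95 to -0.01, adjusted p = 0.230) in OAP2 against PBS, and Cdc6 of -0.41 (-0.84 to 0.02). Pold1 had -0.36 (-0.69 to -0.02) and Pole -0.36 (-0.71 to -0.01), both not called after adjustment. Without PBS 2 these falls were smaller, to differing degrees. Lig1 then had -0.05 (-0.28 to 0.17) and Cdc6 -0.10 (-0.40 to 0.21). Pold1 kept -0.21 (-0.53 to 0.10) and Pole -0.16 (-0.45 to 0.14). For Pold1 every OAP2 library still lay below the PBS libraries that remained, while the groups overlapped for Lig1, Cdc6 and Pole. The comparisons share the OAP2 libraries, so their values are set side by side only.

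Neither APAP against PBS nor OAP2 against APAP gave a called gene among the 51. In APAP against PBS, 0.0166% of all genes were called by edgeR, and DESeq2 called 97 genes and 0 of the 51. Of the 51 genes 7 (13.7%) had an unadjusted p below 0.05, all lower in APAP, against 9.16% of all genes. Without PBS 2 it was 2 of the 51 (3.92%), Tk1 lower and Mcm6 higher (0.24), against 10.6% of all genes. Tk1 was at FPKM 12.8, 12.6 and 14.5 in APAP and 15.3, 19.3 and 17.5 in PBS (-0.35 ± 0.09, adjusted p = 0.296). Tyms was at 2.98, 2.92 and 3.09 in APAP and 3.34, 6.25 and 3.69 in PBS (-0.52 ± 0.20, adjusted p = 0.465). The libraries of both genes did not overlap, with PBS 2 the highest. Prim1 (-0.26, 95% interval -0.48 to -0.04) and Rfc3 (-0.45, -0.84 to -0.05) followed. Without PBS 2 the fold changes were -0.26 for Tk1, -0.22 for Prim1, -0.19 for Tyms (95% interval -0.47 to 0.09) and -0.13 for Rfc3 (-0.37 to 0.10). The median of the 51 was -0.19, and -0.02 without PBS 2.

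In OAP2 against APAP, 0.474% of all genes and none of the 51 were called after adjustment. At the looser threshold of an unadjusted p below 0.05 there were 3 of the 51. This count cannot be set against the adjusted share, and the share of all genes at the looser threshold is not given here. It is therefore read as neither many nor few. The median of the 51 was 0.00. Chaf1a was at FPKM 6.45, 7.31 and 6.36 in OAP2 and 7.99, 7.17 and 8.16 in APAP (-0.24 ± 0.09, adjusted p = 0.210), with overlapping groups. Rfc3, a clamp loader subunit, was at 6.05, 5.26 and 5.60 in OAP2 and 4.30, 3.55 and 4.07 in APAP (0.48 ± 0.18, adjusted p = 0.232), without overlap. Rfc3 was called without PBS 2 (adjusted p = 0.0144), the only 1 of the 51, against 7.61% of all genes. Pola1 (-0.21, 95% interval -0.41 to -0.01) and Rfc5 (0.23, 0.00 to 0.46) were not called.

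Of the 51 genes, 30 were called in at least 1 of the 5 comparisons and 21 in none. The matching share over all genes is not given here, so these counts only list the genes. The 21 were Orc2, Orc3, Orc4, Orc6, Gmnn, Mcm4, Mcm6, Gins3, Gins4, Pole2, Pold3, Pcna, Rfc2, Rfc4, Rfc5, Rpa3, Fen1, Rrm2, Tyms, Ccne1 and Chaf1b. Their mean FPKM over the 12 libraries lay between 3.83 (Tyms) and 51.6 (Pcna), above Orc1 (2.71), Gins1 (2.79) and Cdc6 (2.82), which were called.

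Other genes of the same pathway were read from a list of 66, of which 61 were tested, Tfdp2, Cdkn1c, Cdkn2b and Dscc1 were below the filter and 1 is not analysed here. In OAP2 against Oxa 11 of the 61 fell and 2 rose, with a median of -0.24. Without PBS 2 in the fit 23 fell and 3 rose. Over all genes 6.91% were called lower and 6.02% higher, and 12.7% and 10.1% without PBS 2. Samhd1, which breaks down DNA precursors, was at FPKM 6.22, 6.58 and 6.46 in OAP2 and 10.5, 11.7 and 11.1 in Oxa (-0.78 ± 0.08, adjusted p = 0.000252). The maintenance methyltransferase gene Dnmt1 was at 23.6, 25.8 and 20.9 in OAP2 and 43.5, 41.4 and 41.3 in Oxa (-0.84 ± 0.12, adjusted p = 0.000802). Ccnd1, the cyclin that starts G1 progression, was at 53.2, 61.8 and 58.2 in OAP2 and 89.0, 99.2 and 96.8 in Oxa (-0.71 ± 0.12, adjusted p = 0.00253). The fork protection gene Timeless (-0.70), the pocket protein gene Rbl2 (-0.85) and Donson, which helps assemble the helicase (-0.51), fell as well. The genes that rose were Cdkn1a, the p21 inhibitor of cyclin-dependent kinases, and Rrm2b, a reductase subunit used outside S phase (0.31 ± 0.08, adjusted p = 0.0287). Cdkn1a was at 5.25, 4.82 and 3.70 in OAP2 and 3.02, 2.24 and 2.98 in Oxa (0.75 ± 0.18, adjusted p = 0.0187), opposite in direction to the replication genes.

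In Oxa against PBS, where 5.35% of all genes were called higher and 4.76% lower, 8 of these 61 genes rose. Cdkn1a fell (-0.74 ± 0.18, adjusted p = 0.0229). Those that rose included Samhd1 (0.71), the ribonuclease subunit gene Rnaseh2a (0.52), the kinase inhibitor gene Cdkn2d (0.92), Timeless (0.49), Rbl2 (0.54) and the E2F family genes E2f2 (0.84) and E2f8 (0.30). Without PBS 2, 19 rose and 3 fell (Cdkn1a, Cdkn2c and E2f6), against 14.2% and 11.2% of all genes. Cdkn1a was then at -0.61 and E2f2 at 0.56. In OAP2 against PBS, Rnaseh2a (0.41) and the retinoblastoma gene Rb1 (0.63) rose, and Cdkn2c (-0.65), Ccnd1 (-0.60) and Dnmt1 (-0.48) fell. The shares called over all genes were 2.14% higher and 3.11% lower. Without PBS 2 the 5 genes just named were called in the same directions. In all 8 of the 61 then rose and 6 fell, against 8.77% higher and 7.65% lower over all genes. Of the 28 G2 and mitosis genes, 3 fell in OAP2 against Oxa, against 6.91% of all genes, with a median of 0.05. They were the transcription factor Foxm1 (-0.69), the kinesin Kif20a (-0.44) and the checkpoint kinase Bub1 (-0.27). Cenpf, a kinetochore gene, rose in OAP2 (0.70) and in Oxa (0.60) against PBS, with these 2 comparisons sharing the PBS libraries, and by 0.76 and 0.66 without PBS 2.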

How the data were processed

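Poly(A) RNA was sequenced in pairs from strand-marked libraries, per the labels' protocols. Tools listed in the submitters' processing notes, with no role given, are edgeR, DESeq2, StringTie 2.1.6, HISAT2 2.2.1 and cutadapt 1.9. Levels are the deposited FPKM values, which the authors scaled by transcript length and library size. The deposited counts are read here as estimated counts (expected counts), in whole numbers and unscaled. The notes list build mm9, but 43 of the 51 genes have the same position as in GENCODE M21 (GRCm38), so promoter positions are given in GRCm38.

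The 12036 genes with 1 FPKM or more in 3 or more of the 12 libraries were tested. Counts, already whole, were rounded, scaled by TMM and fitted with 1 mean per group over all 12 libraries in edgeR 4.0.16 (R 4.3.3), by 2-sided quasi-likelihood tests with Benjamini-Hochberg adjustment over all tested genes. A gene was called at an adjusted p below 0.05. SE was taken as the ratio of the log2 fold change to the root of F, and 95% intervals follow from it. The biological coefficient of variation was 18.1%. A prior count of 2 was used for log2 CPM. The fit was also run on simulated counts, drawn with the spread that it had estimated itself. They held no outlying library such as PBS 2, so they cannot show how the fit deals with 1. The plan named the quasi-likelihood test for counts and limma 3.58.1 on log2(FPKM + 1) as an alternative. Other alternatives were DESeq2 1.42.0, voom with quality weights, other scalings and filters, a fit of the 6 libraries compared, a replicate block, and leaving out each library. The labels do not say whether replicate numbers pair the libraries, and the main fit did not pair them. The sources used here state neither the counting strand nor the handling of shared reads.

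The 51 genes, the other lists and the tests were chosen with earlier results of these data known. Genes were described by a rule: the 12 of the 51 with the smallest p-values in any comparison in which they were called, and, in a comparison with fewer than 4 called, the 4 with the smallest p. Of the other pathway genes up to 8 called ones were named, and of the mitosis genes up to 3. Per-library values of further genes of the 51 were added after their values were seen, and 21 genes called in no comparison are named.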

Additional observations from a re-analysis of the deposited data

How the results depend on the processing

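For the genes described by the naming rule, in the comparisons that named them, no fold change changed sign under any of the 23 alternatives. Over all 51 genes, leaving out PBS 2 turned the sign of 14 in OAP2 against PBS, 5 in Oxa against PBS and 18 in APAP against PBS. None of these was called with all libraries. Without PBS 2, Mcm4 in OAP2 against PBS (-0.06 with all libraries, 0.31 without) and Rrm2 in Oxa against PBS (-0.06 and 0.38) were called. Counts of calls depended more on the processing, and the cause of each shift was not tested. Of the 51 genes, the number called in OAP2 against Oxa (26) was 12 with no filter on low values. In Oxa against PBS (11) it was 2 with no filter, 2 with only the 6 libraries compared, 36 with voom quality weights and 17 with DESeq2. In OAP2 against PBS (4) it was 2, 0 and 7 with no filter, only the 6 libraries and quality weights, and in OAP2 against APAP (0) it was 3 with quality weights. A further alternative, chosen after seeing the data, left out PBS 2 and OAP2 3 together and called 35, 10 and 2 of the 51 in Oxa against PBS, OAP2 against PBS and OAP2 against APAP. Leaving out 1 library at a time gave 9 to 34 called in OAP2 against Oxa, 0 to 31 in Oxa against PBS, 1 to 6 in OAP2 against PBS, 0 to 0 in APAP against PBS and 0 to 1 in OAP2 against APAP.

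Over all genes, OAP2 against Oxa called 1557, and 1026 with no filter, 3474 with quality weights, 3426 without PBS 2 and OAP2 3, and 688 to 2743 with 1 library left out. Oxa against PBS called 1217, and 701 with no filter, 523 with only the 6 libraries, 4394 with quality weights, 2015 with DESeq2, 4258 without both libraries, and 477 to 3066 with 1 left out. OAP2 against PBS called 632, and under the same alternatives 360, 38, 2835, 1267, 2838, and 252 to 1976. APAP against PBS called 2, and 0, 0, 105, 97, 72, and 0 to 3. OAP2 against APAP called 57, and 4, 286, 1567, 506, 1438, and 0 to 916.

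The labels do not say whether samples with the same replicate number are pairs, and the main fit did not pair them. After group means were subtracted, the correlation within 18 pairs of the same number ranged from -0.146 to 0.267, with 2 over 0.1. Between OAP2 and Oxa the same-number values were 0.267, 0.0864 and 0.204 for numbers 1, 2 and 3. Whether the numbers pair these groups is not known. Of the 6 OAP2 and Oxa libraries, 5 correlated best with the library of their own number in the other group. With the replicate number as a block, 24 of the 51 genes were called in OAP2 against Oxa (23 lower). There were 9 in Oxa against PBS and 3 in OAP2 against PBS. Over the whole table the block gave 30 genes in OAP2 against APAP. For the other comparisons its counts over all genes are not given here, so the counts among the 51 lack that measure beside them.

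At these depths counting error is small for the 51 genes, and the 3 libraries per group limit the precision. Calls against PBS rest on a group in which PBS 2 departs from the other libraries.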
